A study of Saccharomyces cerevisiae with 12 samples.

Results

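The 10 genes described here were LYS1, LYS2, LYS4, LYS5, LYS9, LYS12, LYS14, LYS20 and LYS21, which act in the synthesis of lysine, and CTP1, which encodes the citrate carrier of the mitochondrial inner membrane. They were chosen by name with their log2 signals on the 12 arrays already known, in particular LYS2 in S288c and the second-set Σ1278b arrays beside the first wild type, so all values from single arrays are descriptions, and only the FLO11 comparison was tested. Each gene had 1 probe set, and they were 10 of the 5449 Saccharomyces cerevisiae genes measured, by 5498 probe sets in all.

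Budding yeast makes lysine by the alpha-aminoadipate route, which is found in fungi and not in plants or most bacteria. Homocitrate synthase joins acetyl-CoA to alpha-ketoglutarate, mitochondrial enzymes turn homocitrate into alpha-ketoadipate, and an aminotransferase then gives alpha-aminoadipate. This is reduced to its semialdehyde and carried through saccharopine to lysine. The regulator Lys14 activates genes of the route when the semialdehyde is present, and lysine itself inhibits homocitrate synthase.

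The study asked which genes respond to Mss11, a transcription factor that activates the adhesin gene FLO11, and to FLO11 itself, in 2 laboratory backgrounds of yeast. RNA from 12 cultures was hybridised to 12 Affymetrix arrays. Cultures had a volume of 5 ml of synthetic dropout medium with 2% glucose at 30 °C, and the labels place the harvest in early stationary phase, whereas the study's text states mid-exponential growth. The methods state that media were supplemented with the amino acids each strain required, and the sources used here do not give the amount of lysine in each culture.

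The labels give all Σ1278b cultures as MATα, and the study's strain table as MATa, with ura3-52, with trp1Δ::hisG and leu2Δ::hisG, and with his3Δ::hisG. The first wild type (3 arrays) carried an empty vector, and the FLO11 overexpression cultures (3 arrays) carried FLO11 behind the constitutive PGK1 promoter on a multicopy vector. In a second set with 1 array per group, the Σ1278b wild type and the mss11 deletion carried an empty vector. The other Σ1278b cultures of that set carried FLO8 or MSS11 on a multicopy vector. The study's strain table gives the deletion as mss11Δ::LEU2, and LEU2 read 14.30 on its array. FLO8 encodes another activator of FLO11. The S288c cultures of that set were BY4742, a laboratory strain that the study lists as MATα his3Δ1 leu2Δ0 lys2Δ0 ura3Δ0, with an empty vector or with MSS11 on a multicopy vector, again 1 array each. None of the 6 groups with 1 array had a replicate in the series, so their differences have no replicate check.

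Values are log2 signals, and differences are log2 differences, where 1 is 2-fold. A single-array difference was called when it reached 2-fold and the brighter array lay above its background level. This level was the 95th percentile of 1747 listed probe sets that were not assigned to 1 S. cerevisiae gene. They were taken as probe sets for Schizosaccharomyces pombe, a yeast not present in these cultures, but may include others. The background level lay between 4.77 and 4.90. The largest gap between replicates of the first wild type or of the FLO11 group ran from 0.04 for LYS12 to 0.23 for LYS21 and served as the yardstick for single arrays. This gap measures spread within the first set only. How many of all probe sets exceeded their own gap on the single arrays was not counted. The manipulated genes followed their labels, with MSS11 at 8.22 in the second wild type, 12.29 with its plasmid and 6.87 in the deletion. Vector markers separated the sets. URA3 ranged from 8.40 to 8.71 over the 6 arrays of the first set and was 14.73 in the second wild type, and LEU2 was at 13.04 in the second wild type although the strain is given as leu2Δ. In S288c, labelled MATα, the a-specific receptor gene STE2 stood at 12.14 in the empty-vector array and 10.71 in the MSS11 array, against 7.40 to 8.55 in Σ1278b. The alpha-factor genes MF(ALPHA)1 and MF(ALPHA)2 read 14.48 and 13.23 in the S288c wild type and 14.56 and 13.44 with extra MSS11, where the ranges in Σ1278b were 14.55 to 14.71 and 11.59 to 13.23. The mating type marks of the 2 S288c arrays were therefore mixed, and the group comparisons that use these arrays are given apart from those within Σ1278b.

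**Figure D1:**
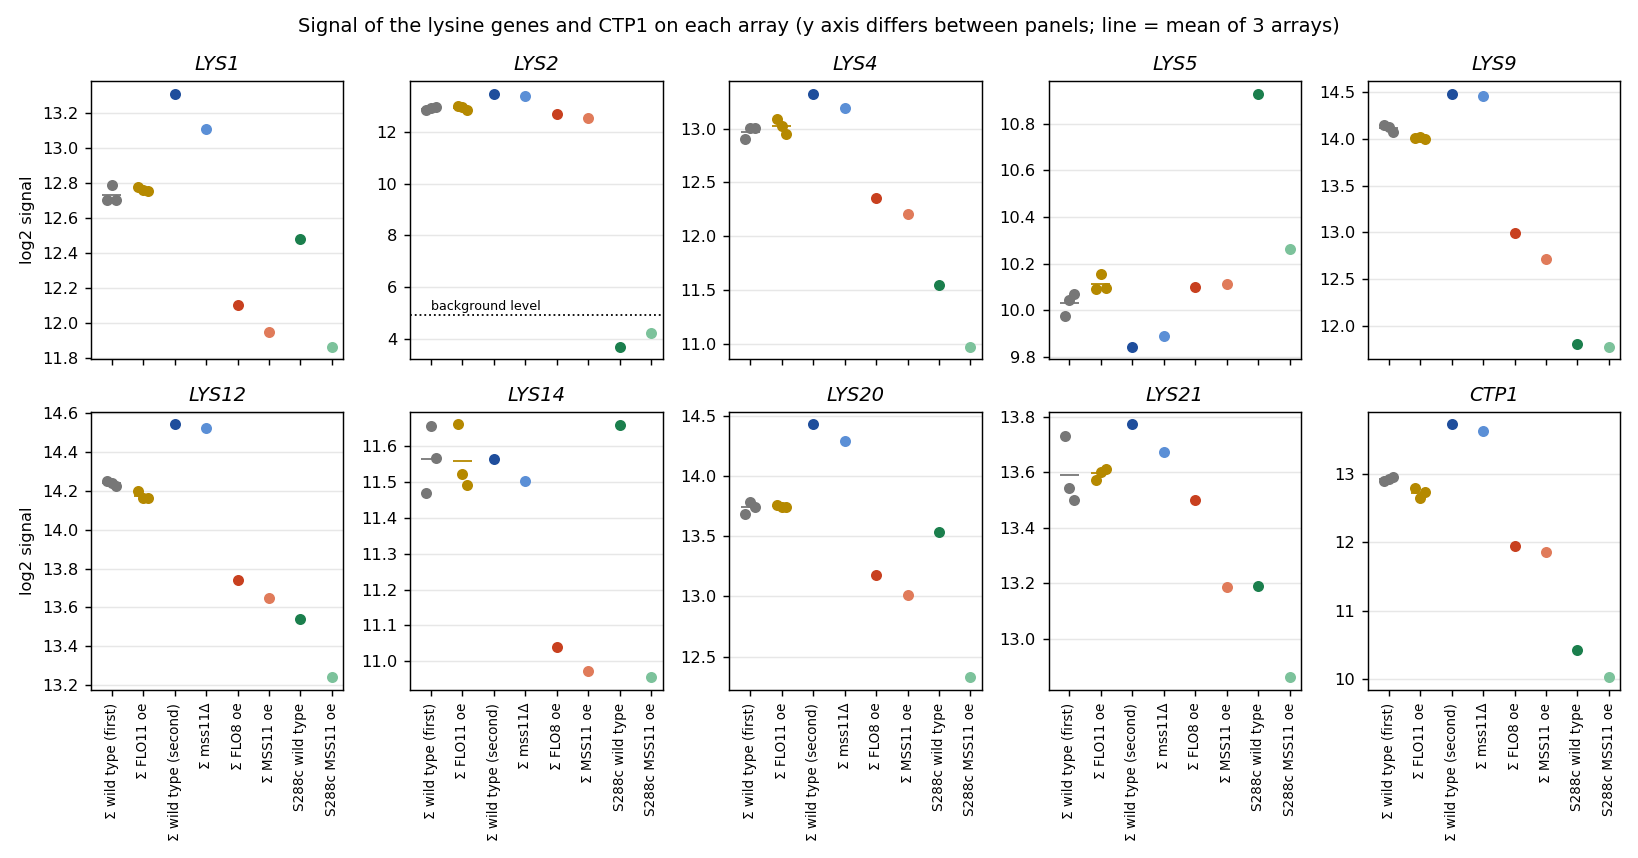
Log2 signal of each of the 10 genes (1 panel each, with its own y axis) in the 8 groups on the x axis, with 1 point per array and a short line at the mean of 3 arrays. LYS2 is at 3.70 and 4.21 in S288c, below the dotted background level, and for LYS9 and CTP1 the FLO8 and MSS11 arrays lie far below both wild types of Σ1278b.

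In Σ1278b of the second set, 9 of the 10 genes had a lower signal with extra FLO8 and with extra MSS11 than in the wild type. LYS5 alone was higher. CTP1 and LYS9 stood lowest. Extra FLO8 gave 4 genes called lower, CTP1, LYS9, LYS20 and LYS1, and 0 called higher, where 0.346% of all probe sets were called lower and 0.473% higher. Extra MSS11 gave 5, the same 4 and LYS4, and 0 higher, where 0.273% were called lower and 0.946% higher. The median difference of the 10 genes was −0.88 with FLO8 and −1.02 with MSS11, and that of all probe sets was 0.00 and 0.01. Both comparisons share the wild type array, so they are not independent of each other. The study tested extra MSS11 in both backgrounds, and the mss11 deletion in Σ1278b, with replicate cultures. Its lists of significantly changed genes for these comparisons name none of the 10 genes. Those lists rest on an adjusted p under 0.05, and the calls here on a 2-fold difference between single arrays, so the thresholds are unlike.

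The genes of homocitrate synthase open the route. LYS20, for one of the isozymes, read 13.69, 13.79 and 13.75 in the first wild type, 14.43 in the second wild type, 14.29 in the mss11 deletion, 13.18 with FLO8 and 13.02 with MSS11. It was lower than the second wild type by 1.25 (2.38-fold) with FLO8 and by 1.42 (2.67-fold) with MSS11, against a replicate gap of 0.10. Both overexpression arrays therefore stood below all 3 arrays of the first wild type, and the 2 empty-vector arrays of the second set stood above them.

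LYS21, for the other isozyme, differed less. Its signals were 13.73, 13.54 and 13.50 in the first wild type, 13.77 in the second wild type, 13.67 in the deletion, 13.50 with FLO8 and 13.19 with MSS11. The differences from the second wild type were −0.27 and −0.59, neither reached 2-fold, and the FLO8 array touched the lowest array of the first wild type. The replicate gap of LYS21, 0.23, was the widest among the 10 genes, and only the MSS11 value stood clearly apart from the other Σ1278b arrays.

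LYS4 and LYS12 encode homoaconitase and homoisocitrate dehydrogenase, the mitochondrial enzymes that follow. LYS4 gave 12.91, 13.01 and 13.00 in the first wild type, 13.32 in the second wild type, 13.19 in the deletion, 12.36 with FLO8 and 12.21 with MSS11. Its difference of −1.12 with MSS11 (2.17-fold) was called and that of −0.96 with FLO8 was not, though the 2 overexpression arrays lay close together. With the mss11 deletion array as the reference in place of the wild type, the MSS11 difference of LYS4 was −0.99 and was no longer called. Against that reference CTP1, LYS9, LYS20 and LYS1 were called lower with FLO8, where 0.8% of probe sets were called lower and 0.6% higher, and the same 4 with MSS11, where 0.728% were lower and 1.16% higher.

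LYS12 was the steadiest gene among replicates, at 14.25, 14.24 and 14.22 in the first wild type. It read 14.54 in the second wild type, 14.52 in the deletion, 13.74 with FLO8 and 13.65 with MSS11. The differences of −0.80 and −0.89 were under 2-fold but many times its replicate gap of 0.04, and as for LYS4 both overexpression arrays lay below, and both empty-vector arrays of the second set above, the first wild type.

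LYS2 encodes alpha-aminoadipate reductase, and LYS5 encodes the phosphopantetheinyl transferase that activates the Lys2 protein. In Σ1278b, LYS2 read 12.83, 12.91 and 12.94 in the first wild type, 13.47 in the second wild type, 13.39 in the deletion, 12.68 with FLO8 and 12.54 with MSS11. It was lower than the second wild type by 0.80 with FLO8 and by 0.93 with MSS11, differences under 2-fold that exceeded its replicate gap of 0.16. The FLO8 and MSS11 arrays themselves differed by 0.13, within that gap.

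LYS5 ran the other way. It read 9.98, 10.05 and 10.07 in the first wild type, 9.84 in the second wild type, 9.89 in the deletion, 10.10 with FLO8 and 10.11 with MSS11. The differences of 0.26 and 0.27 from the second wild type were small, and its groups stood broadly in the reverse order of the other genes, with the empty-vector arrays of the second set lowest. Across the 10 Σ1278b arrays the correlation of LYS5 with each other member was negative, from −0.30 with LYS14 to −0.81 with CTP1, as a description over arrays that include 6 replicates of 2 groups.

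The last steps run through saccharopine. LYS9, for the saccharopine dehydrogenase that forms this intermediate, gave 14.15, 14.13 and 14.07 in the first wild type, 14.48 in the second wild type, 14.46 in the deletion, 13.00 with FLO8 and 12.72 with MSS11. Its difference was −1.48 with FLO8 (2.80-fold) and −1.76 with MSS11 (3.39-fold), the second lowest of the 5498 values in the MSS11 comparison. The FLO8 and MSS11 arrays differed from each other by 0.28, above the replicate gap of 0.08.

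LYS1, for the dehydrogenase that releases lysine, gave 12.70, 12.79 and 12.70 in the first wild type, 13.31 in the second wild type, 13.11 in the deletion, 12.10 with FLO8 and 11.95 with MSS11. It was lower than the second wild type by 1.21 with FLO8 (2.32-fold) and by 1.36 with MSS11 (2.57-fold). In the mss11 deletion LYS1 differed by −0.20, against a replicate gap of 0.09, and 6.38% of all probe sets lay at or below that difference.

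LYS14, the gene of the activator itself, differed less than most of the enzyme genes. It read 11.47, 11.66 and 11.57 in the first wild type, 11.57 in the second wild type, 11.50 in the deletion, 11.04 with FLO8 and 10.97 with MSS11. The differences of −0.53 and −0.59 were under 2-fold and exceeded its replicate gap of 0.19. LYS14 had the same level in both wild types, with a difference of 0.00.

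CTP1 gave 12.90, 12.92 and 12.96 in the first wild type, 13.73 in the second wild type, 13.63 in the deletion, 11.95 with FLO8 and 11.85 with MSS11. It was lower than the second wild type by 1.78 with FLO8 (3.43-fold) and by 1.88 with MSS11 (3.67-fold), and the MSS11 value was the lowest of all 5498 probe sets. Across the 10 Σ1278b arrays the profile of CTP1 correlated with those of LYS12 and LYS20 at 0.99 each, again as a description.

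**Figure D2:**
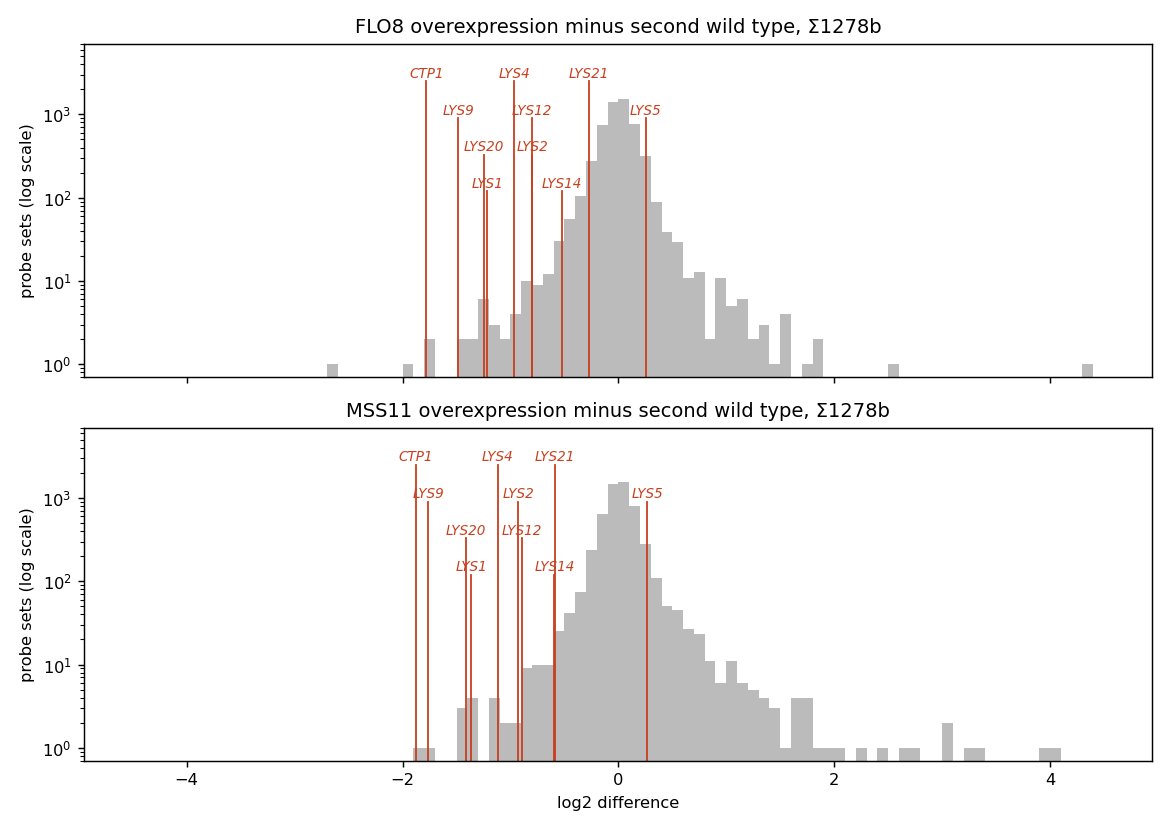
Number of probe sets (y axis, log scale) by log2 difference from the second wild type (x axis) for extra FLO8 (top) and extra MSS11 (bottom) in Σ1278b, with the 10 genes as labelled red lines. CTP1 lies at −1.78 and −1.88 at the low edge of the distributions and LYS5 at 0.26 and 0.27 on the high side.

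The mss11 deletion array lay close to the second wild type for these genes. In it, 0 of the 10 genes were called against the second wild type, where 0.4% of all probe sets were called higher and 0.236% lower. The differences ran from −0.20 for LYS1 to 0.05 for LYS5, with a median of −0.09. Only LYS1 and LYS20, at −0.14, differed by more than their replicate gap, and both were lower. Such values were common, with 6.38% of all probe sets at or below LYS1 and 13.3% at or below LYS20.

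The second wild type was not level with the first, so the size of the FLO8 and MSS11 differences depends on the reference. Against the mean of the first wild type, the second wild type was higher for CTP1 by 0.80, for LYS20 by 0.69, for LYS1 and LYS2 by 0.58 each and for LYS9 by 0.36. It lay above all 3 first wild type arrays for 8 of the 10 genes and below them for LYS5, at −0.19, but such positions were common, with 33.4% of all probe sets above and 42.2% below. The median of the 10 genes was 0.36 and that of all probe sets −0.02. None was called, where 0.618% of probe sets were called higher and 0.928% lower.

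The mss11 deletion array, which also carried an empty vector, stood with the second wild type. CTP1 was 0.70 above the first wild type and LYS20 0.55 above it, and 7 of the 10 genes lay above all 3 arrays and LYS5, at −0.14, below them, against 35.2% and 42.2% of all probe sets. Again 0 genes were called, where 0.691% of probe sets were called higher and 0.8% lower. The median was 0.31.

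The FLO8 and MSS11 arrays lay on the other side of the first wild type. With FLO8, 9 of the 10 genes lay below all 3 arrays and LYS5 above them, against 42.0% and 34.9% of all probe sets, and the median difference was −0.54. LYS9, at −1.12 (2.17-fold), was the only gene called, where 0.964% of probe sets were called lower and 0.746% higher. CTP1 was lower by 0.98 and LYS21 by 0.09, the latter just below the lowest array.

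With MSS11 the same 9 genes lay below and LYS5 above, against 40.5% and 37.5% of all probe sets, with a median of −0.66. LYS9, at −1.40 (2.63-fold), and CTP1, at −1.07 (2.10-fold), were called lower, where 1.0% of probe sets were called lower and 1.38% higher. Thus 2 of the 5 genes called against the second wild type were also called against the first, while LYS1, LYS4 and LYS20 lay at −0.78, −0.77 and −0.73. Set and vector marker go together, so what separates the 2 wild types cannot be told apart from either.

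Read by vector content, a grouping of the labels that was made after the values were seen, 7 of the 10 genes had both empty-vector arrays of the second set above, and both arrays with an insert below, all 3 arrays of the first wild type. These were LYS1, LYS2, LYS4, LYS9, LYS12, LYS20 and CTP1, and 1.64% of all probe sets had this order. LYS5 had the reverse order, which 1.47% of probe sets had. Only 7 of the 5498 probe sets, 0.127%, had both empty-vector arrays at least 2-fold above both insert arrays, and 4 of them were CTP1, LYS9, LYS20 and LYS1. The smallest gap between the arrays of the 2 kinds was 1.68 for CTP1, 1.46 for LYS9, 1.11 for LYS20 and 1.01 for LYS1. The other genes of the 7 were CIS1 at 1.33, NIT1 at 1.33 and YIL165C at 1.16. NIT1 is annotated as a nitrilase gene, and YIL165C is its neighbour on the chromosome.

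**Figure D3:**
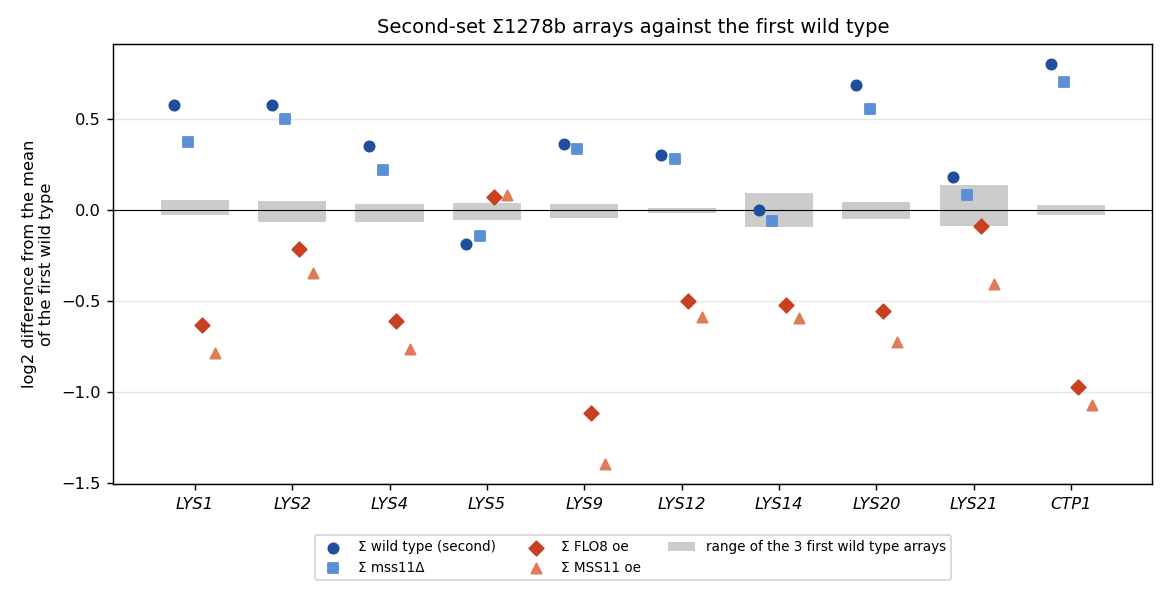
Log2 difference of each second-set Σ1278b array from the mean of the first wild type (y axis) for the 10 genes (x axis), with grey boxes for the range of the 3 first wild type arrays. The second wild type and the mss11 deletion lie above the boxes for 7 genes and below for LYS5, while FLO8 and MSS11 reach −1.12 and −1.40 for LYS9.

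FLO11 overexpression is the only comparison with replicates. The rule for the 10 genes does not name this contrast, but it names the first wild type, and the genes were taken with results of these arrays known. None of the 10 passed (limma, Benjamini-Hochberg adjusted over 5498 probe sets), where 6.35% of all probe sets passed, 3.8% higher and 2.55% lower. Before adjustment 2 of the 10 had a limma p under 0.05, as did 23.0% of all probe sets. CTP1 had the largest difference. It read 12.93 ± 0.03 in the first wild type and 12.73 ± 0.07 with FLO11 (mean ± SD, n = 3 each). The difference was −0.19 (SE 0.05, limma adjusted p = 0.0766, 95% interval −0.32 to −0.07), with FLO11 arrays at 12.80, 12.65 and 12.74. LYS9 read 14.12 ± 0.04 and 14.01 ± 0.01 (n = 3 each), a difference of −0.11 (SE 0.04, limma adjusted p = 0.189, 95% interval −0.21 to −0.01), with FLO11 arrays at 14.00, 14.02 and 14.00.

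The other 8 genes had smaller differences, from −0.06 for LYS12 to 0.08 for LYS5, with limma adjusted p-values from 0.326 to 0.979. The 95% intervals of all 10 differences lay between −0.32 and 0.19. FLO11 signal itself was between 14.81 and 14.88 in the FLO11 arrays, 14.19 in the FLO8 array and 14.27 in the MSS11 array. Whether the effect of FLO11 and that of FLO8 or MSS11 differ was not tested, since the latter have 1 array each and another wild type. With eBayes set to trend and robust, CTP1 passed, at a limma adjusted p = 0.0354, where 408 of the 5498 probe sets passed. The limma adjusted p of CTP1 otherwise ran from 0.0601 to 0.248 over the alternatives.

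**Figure D4:**
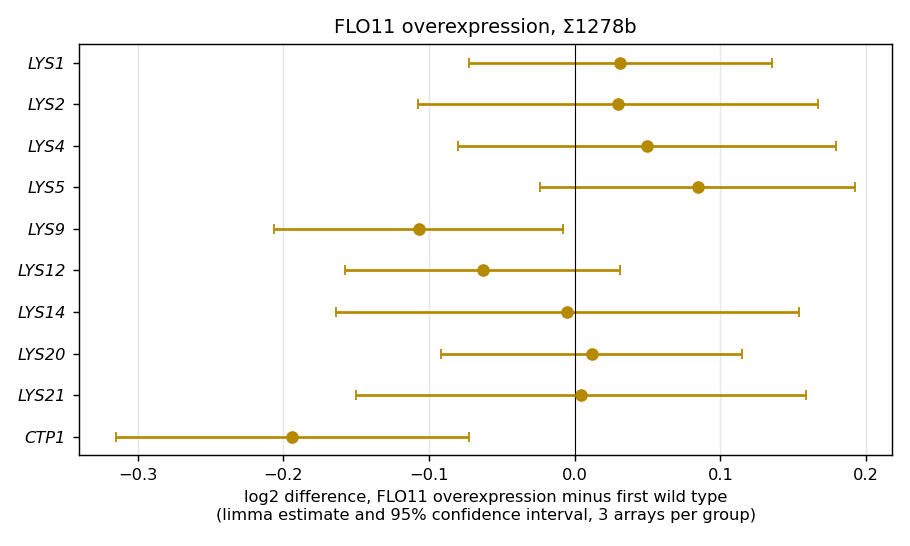
Log2 difference of the FLO11 overexpression group from the first wild type (x axis) for each of the 10 genes (y axis), as the limma estimate with its 95% confidence interval (3 arrays per group). The intervals lie between −0.32 and 0.19, with those of CTP1 and LYS9 below 0.

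Genes near the route were measured beside the 10. Of 15 genes around the route, among them the general amino acid control activator GCN4, the lysine permease gene LYP1 and the aminotransferase genes ARO8 and ARO9, 0 were called with FLO8 and 0 with MSS11, and the medians were −0.01 and −0.03. The largest differences were those of ALP1, for a basic amino acid permease, at −0.56 and −0.70, and of ARO9 at −0.55 and −0.51. The signal of ALP1 was near background, at 6.20 in the second wild type, 5.64 with FLO8 and 5.51 with MSS11. LYP1 was at −0.48 and −0.44, and GCN4 at 0.02 and 0.00. With another reference 1 of the 15 was called lower with each plasmid. Against the mss11 deletion this was ARO9, at −1.24 and −1.20, and against the first wild type it was RTG1, for a factor of retrograde signalling, at −1.03 and −1.30. RTG1 was at −1.07 in the second wild type too, and ARO9 was higher in the deletion than in that wild type by 0.69.

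Of 11 genes for other mitochondrial carriers, 0 were called with either plasmid, with medians of −0.08 and −0.03. ODC1, for a carrier of alpha-ketoglutarate and alpha-ketoadipate, was at −0.47 and −0.22, and YHM2, for another citrate carrier, at −0.36 and −0.37. MPC3 went the other way, at 0.12 with FLO8 and 0.58 with MSS11, the largest difference of the 11 with MSS11. CTP1 at −1.78 and −1.88 was thus lower than each of the 11, of which the lowest stood at −0.50 and −0.37. Against the mss11 deletion again 0 carriers were called, and against the first wild type 1 was called higher with FLO8 and 3 with MSS11, among them DIC1, for the dicarboxylate carrier, at 1.12 and 1.05. In the second wild type 2 carriers were called higher than in the first too, with DIC1 at 1.09. From the second wild type DIC1 differed by only 0.03 with FLO8 and −0.03 with MSS11.

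Genes of other amino acid routes were not lower as groups in Σ1278b. Of 17 genes for arginine, histidine and tryptophan, 0 were called, and the medians were 0.19 with FLO8 and 0.16 with MSS11, with ARG2, for the first enzyme of arginine synthesis, at 0.42 and 0.43. Of 10 genes for the branched-chain amino acids, 0 were called, with medians of 0.05 and 0.07. After FLO11 overexpression, 7 of these 10 branched-chain genes rose, with a median of 0.33, among them LEU1, for isopropylmalate isomerase, by 0.47 with an SE of 0.04 and a limma adjusted p = 0.0016. SFC1, for the succinate and fumarate carrier, rose by 1.45 with an SE of 0.14 and a limma adjusted p = 0.0025 and was 1 of 4 carriers of the 11 that rose.

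The chromosomal neighbours of the 10 genes were examined as well. In the current RefSeq annotation they have 20 neighbours with a probe set, 1 on each side. With FLO8, 0 of the 20 differed 2-fold, with values from −0.41 to 0.35, and with MSS11 0 did, with values from −0.54 to 0.86. The medians were −0.02 and 0.00, so no neighbour was called lower in either comparison.

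In S288c, LYS2 had no signal above background on either array, at 3.70 in the wild type and 4.21 with MSS11, where the background levels were 4.77 and 4.82. BY4742 carries lys2Δ0. LYS2 was the only member below background on any array. Against the background level it was at least 417-fold lower in S288c, and between the MSS11 arrays of the 2 strains at least 212-fold lower. The genes on either side of LYS2 had signal above background in S288c. RAD16, a repair gene, was at 9.52 in the S288c wild type and 9.43 in the second Σ1278b wild type. TKL2, a transketolase gene, was at 8.25 and 6.18, higher by 2.07 in S288c. Of the 20 neighbours of the 10 genes, 3 differed 2-fold between these wild types, TKL2 among them.

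The other lysine genes were present in S288c, most at lower levels than in Σ1278b. In all, 5 of the 10 genes were called lower in the S288c than in the second Σ1278b wild type and 1 higher, where 3.27% of all probe sets were called lower and 5.33% higher. CTP1 read 10.42 in S288c, a difference of −3.31 (9.94-fold), LYS9 read 11.81, a difference of −2.68 (6.39-fold), and LYS4 read 11.54, one of −1.78 (3.44-fold). LYS12, at 13.54, was called lower on the very limit of 2-fold, and with arrays centred on their medians its difference was −0.94, which is not called. LYS20, LYS1 and LYS21 differed by −0.90, −0.83 and −0.58. LYS14 differed by 0.09, within its replicate gap, and LYS5, at 10.93, was higher by 1.08 (2.12-fold). The median was −0.95, or −0.90 without LYS2, beside −0.04 for all probe sets.

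The arginine, histidine and tryptophan genes went the other way between the wild types, with a median of 0.64, 3 of 17 called higher and 0 lower, led by ARG7, which acts in ornithine synthesis, at 1.72. Among the carriers ODC1 was called lower, at −1.29, and ARO9 was the only gene around the route called, at 1.95. Strain, mating type marks and the lysine requirement differ together between these arrays and cannot be told apart.

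Between the 2 strains with extra MSS11, 3 of the 10 genes were called lower in S288c and 0 higher, where 2.46% of probe sets were called lower and 4.0% higher. Besides LYS2 these were CTP1, at −1.83, and LYS4, at −1.23 (2.35-fold). LYS9 differed by −0.94, LYS20 by −0.69, and LYS1 and LYS14 by −0.08 and −0.02, within their replicate gaps. The median was −0.55, or −0.41 without LYS2, beside −0.09 for all probe sets.

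Within S288c, extra MSS11 gave a lower signal for all 9 genes above background, with 1 of them called, where 0.437% of probe sets were called lower and 1.24% higher. LYS20 read 13.54 in the wild type and 12.33 with MSS11, a difference of −1.21 (2.31-fold). LYS14 went from 11.66 to 10.95, LYS5 from 10.93 to 10.26, LYS1 from 12.48 to 11.86 and LYS4 from 11.54 to 10.98, differences of −0.70, −0.67, −0.62 and −0.57. CTP1, LYS21 and LYS12 differed by −0.40, −0.33 and −0.30, and LYS9 by −0.03, which is within its replicate gap. LYS9, whose difference in Σ1278b was −1.76, thus had the smallest of the 9 in S288c, where it stood at 11.81 in the wild type and 11.78 with MSS11.

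The median of the 9 genes in that comparison was −0.57, beside −0.02 for all probe sets, but in S288c other routes were lower too. The arginine, histidine and tryptophan genes had a median of −0.45 and the branched-chain genes one of −0.36, with 0 of 17 and 0 of 10 called. In Σ1278b with MSS11 those medians were 0.16 and 0.07, beside −1.02 for the 10 genes. Whether the strains differ in these responses was not tested.

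**Figure D5:**
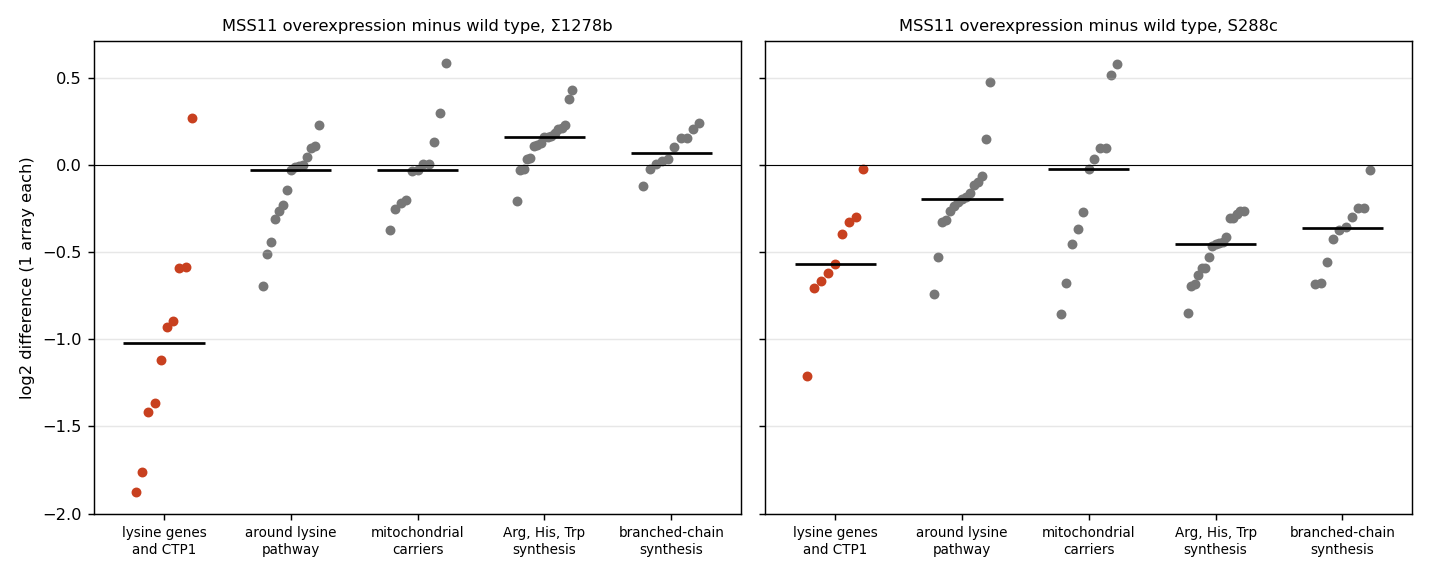
Log2 difference with extra MSS11 from the wild type of the same set (y axis) for single genes (points) of 5 lists (x axis) in Σ1278b (left) and S288c (right), with lines at the median of each list. In Σ1278b the lysine genes and CTP1, with a median of −1.02, lie below the other lists, and in S288c, where LYS2 is left out, their median is −0.57 and that of arginine, histidine and tryptophan synthesis is −0.45.

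Over all 12 arrays the profile of most of the genes was alike. Each was set against the mean centred profile of the members without LYS2, and Pearson's r was 0.99 for LYS12, 0.97 for LYS4 and LYS9, 0.96 for CTP1, 0.71 for LYS14 and −0.62 for LYS5. These are descriptions over arrays of 8 groups, and each of these genes except LYS2 was part of the profile. The genes outside the 10 with the profile most like it were DOA1, which acts in ubiquitin turnover, at 0.96, then RRG8, GIT1 and PEX11 at 0.94 each, XRS2 and NGL1 at 0.93, UBX7 at 0.92 and HNT2 at 0.91. Over the 10 Σ1278b arrays, with LYS2 kept, they were YIL165C at 0.99, NIT1 at 0.98, PEX11, a peroxisome gene, at 0.97, YSW1 at 0.95, UMP1 at 0.93, GAL2 and CYC2 at 0.92 and RRG8 at 0.91.

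NIT1 gave 12.02, 12.01 and 11.97 in the first wild type, 12.72 in the second wild type, 12.63 in the deletion, 11.28 with FLO8 and 11.30 with MSS11. Unlike CTP1 and LYS9 it was not low in the S288c wild type, at 12.40, and read 11.54 there with MSS11.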

How the data were processed

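Labelled RNA from 12 cultures was hybridised to Affymetrix Yeast Genome 2.0 arrays, 1 culture per array. The intensity values deposited were linear RMA signals, which the authors had background corrected, quantile normalized and summarised by probe set. The sources used here do not give the version of RMA. Of 10928 probe sets, 5498 belonged to 1 S. cerevisiae gene and entered the comparisons. These were converted to log2 here without a pseudocount, since the deposited values were not on the log2 scale the plan had assumed. The number of arrays limits the precision, and quantile normalization hides any change common to most genes. All sample columns were used.

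Groups came from the labels. FLO11 overexpression was tested against the first wild type by two-sided limma fits (version 3.58.1, R 4.3.3, lmFit and eBayes), with p-values adjusted by the Benjamini-Hochberg method over 5498 probe sets and a threshold of 0.05, checked on simulated data, and its p-values measure the spread between cultures that the labels call biological replicates. Single arrays were compared without a test, with a call at a log2 difference of 1. Named genes were the 10 members, up to 4 genes by absolute difference of each of 4 lists per comparison, the 8 genes with the most similar profile over 12 or 10 arrays, their chromosomal neighbours by range, and marker genes. GCN4, ARO8, RAD16, TKL2, RTG1, DIC1 and CIS1 were named after their values were seen. Members and lists were chosen with earlier results of these data known. The alternatives added after seeing the data were the grouping by vector insert, the deletion array as reference and medians without LYS2. Some genes of the lists are not reported here. Sequences were not used here.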

Additional observations from a re-analysis of the deposited data

Results flagged for a closer look

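With extra MSS11 the LYS5 probe set was lower by 0.67 in S288c (−0.67, from 10.93 to 10.26) and higher by 0.27 in Σ1278b (from 9.84 to 10.11), opposite directions in the 2 strains. Each value rests on 1 array per group, the 2 S288c arrays are those with signal from both a-specific and alpha-specific genes, and the difference between the strains was not tested. The largest gap between replicates of LYS5 was 0.09. Against the first wild type the Σ1278b MSS11 array was higher by only 0.08, within that gap. In S288c the arginine, histidine and tryptophan genes and the branched-chain genes were lower too, with medians of −0.45 and −0.36.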

How the results depend on the processing

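With 1.5-fold in place of 2-fold, the genes called numbered 7 with FLO8 and 9 with MSS11 in Σ1278b, 4 with MSS11 in S288c and 5 between the MSS11 arrays of the strains. All were lower, and the share of all probe sets called at 1.5-fold was not counted. The weakest gene called was LYS2, LYS21, LYS1 and LYS20 in that order. At or below these genes lay 0.618%, 0.873%, 2.66% and 6.46% of all probe sets. Centring each array on its median gave a median difference of −0.89 between the S288c and Σ1278b wild types and −0.46 between their MSS11 arrays, and LYS1 in the latter went from −0.08 to 0.0027. Leaving out LYS2 gave medians of −0.57, −0.90 and −0.41 for the MSS11 comparison in S288c and for the strains without and with extra MSS11. With the mss11 deletion as the reference, the medians were −0.81 with FLO8 and −0.93 with MSS11. Against the FLO11 arrays in place of the first wild type, the medians were 0.42 for the second wild type and 0.35 for the deletion, and LYS5 was at −0.0138 with FLO8 and −0.0015 with MSS11. Leaving out each first wild type array in turn gave medians from −0.58 to −0.52 for FLO8 and from −0.69 to −0.65 for MSS11.

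After FLO11 overexpression, 208 probe sets passed with the replicate number as a block and 112 when all probe sets of the array were tested. Deviations of same-numbered arrays from their group means had correlations of 0.03, −0.12 and −0.27. Those of wild type replicate 3 and FLO11 replicate 2 had one of 0.40. With so few arrays this check cannot settle whether the numbers pair the cultures. Leaving out 1 array gave 96 (without wild type replicate 2) to 318. With eBayes trend and robust, 1 of the 10 genes passed (CTP1, −0.19), where 408 of the 5498 probe sets passed. The other alternatives left 0 of the 10 past the threshold. Differences near 0 changed sign. LYS20 and LYS21 were at −0.007 and −0.0091 after quantile normalization within the 6 arrays. With 1 array left out, LYS2 ran from −0.0025 (without wild type replicate 1) to 0.0781, LYS14 from −0.056 to 0.0412 (without wild type replicate 2), LYS20 from −0.0135 (without wild type replicate 1) to 0.0345, and LYS21 from −0.0408 (without wild type replicate 3) to 0.0741. The cause of these shifts was not tested. LYS2 in S288c has only an upper bound, since its signal lay below background.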
